A study of Saccharomyces cerevisiae BY4741 with 6 samples.

Results

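The 31 genes described here encode the enzymes that turn acetyl-CoA into fatty acids and into ergosterol in the budding yeast Saccharomyces cerevisiae, with the scaffold protein Erg28. They were taken by name from the known pathways, without use of any measured value, and all 31 were among the 5631 rows of the deposited table. There were 8 genes of fatty acid synthesis, 9 of the mevalonate pathway from acetyl-CoA to farnesyl diphosphate and 14 of the route from squalene to ergosterol. Poly(A) RNA was sequenced from 3 cultures of the wild-type strain BY4741 and from 3 cultures of a pex3 deletion strain of the same background, which the labels call biological triplicates. Both strains are MATa and carry the his3[delta]1 and leu2[delta]0 alleles together with met15[delta]0 and ura3[delta]0, and in the deletion strain PEX3 (YDR329C) is replaced by kanMX4. Each strain comes from a single stock of a strain collection, so that other differences between the stocks cannot be told apart from the deletion. All cultures were grown in shake flasks at 30 degrees in mineral medium with 0.5% acetate, following growth on glucose, and were harvested at an optical density of 0.5. Pex3 is needed to form peroxisomes, and the comparison addresses how the transcriptome differs when they cannot form.

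Acetyl-CoA is the starting point of both pathways. In fatty acid synthesis it is carboxylated to malonyl-CoA, assembled into saturated chains by fatty acid synthase, and then desaturated and elongated at the endoplasmic reticulum. In sterol synthesis it is condensed and reduced to mevalonate, built up into farnesyl diphosphate and squalene, and cyclised and modified to ergosterol, the main sterol of fungal membranes. Several of these enzymes consume molecular oxygen, and many of the genes are controlled by sterol supply through the transcription factors Upc2 and Ecm22, which bind the sterol regulatory element. Yeast breaks fatty acids down in peroxisomes, while the enzymes described here work mainly in the cytosol and the endoplasmic reticulum.

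The core of the sterol regulatory element was searched for upstream of these genes, as the letters TCGTATA on either strand of the RefSeq R64 sequence. In windows of 250 bases before to 50 bases after the coding start it was found for 4 of the 31 genes (12.9%), against 4.19% of the 5515 tested genes with a window. In windows of 500 bases before the coding start, which can reach into a neighbouring gene, it was found for 10 of the 31 (32.3%), with 13 matches, against 6.82% of the same 5515 genes. The match is a description of these letters and not a site of binding. Coding starts were those annotated in R64. Whether translation of HFA1 begins further upstream, so that its match would lie in coding sequence, was not examined. The sequences shown here are those of ERG8 and ERG28, which had the highest and the lowest fold change among the ergosterol pathway genes, and of the 3 genes with a pair of matches. Each is written 5′ to 3′ on the strand that reads the element, which is in capitals, with its R64 position.
ERG8, chrXIII:712153-712181, minus strand: ccttttagatcTCGTATAgaaaaacgcat
ERG28, chrV:238277-238305, plus strand: tttaattcagtTCGTATAagattaggtta
ERG13, chrXIII:20732-20760, minus strand: cggaataagctTCGTATAtacaatagaaa
ERG13, chrXIII:20619-20647, plus strand: tttcaacacacTCGTATAattaatagccc
ERG25, chrVII:610070-610098, plus strand: actgcctccctTCGTATAcgggacacaga
ERG25, chrVII:610090-610118, plus strand: ggacacagagaTCGTATAcggtaaacgac
ERG3, chrXII:253524-253552, minus strand: agccatcggccTCGTATAcaccccggttg
ERG3, chrXII:253564-253592, plus strand: aaaattcaggcTCGTATAagtggcacaat
In ERG8 the element began 152 bases before the coding start, and in ERG28 278 bases before it. The other genes with a match in the wider window were ACC1, HFA1, ERG1, ERG6 and ERG2. The core CATGTG of the element bound by Ino2 and Ino4, regulators of lipid synthesis genes, was found in the narrower window of FAS2, ELO2 and ERG27, or 9.68% of the 31, against 6.55% of all genes with a window. In the wider window it was found for 7 genes (22.6%), with ACC1, ERG20, ERG11 and ERG4 added, against 12.9% of all. The motif of the heme-responsive regulator Hap1, written as CGG, 3 free bases, TA, 1 free base and CGG, was found in 0 of the 31 windows and in 0.127% of all, and in the wider window in 0 of the 31 and 0.381% of all.

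Library totals lay between 6782522 and 9410398 counts, and the 31 genes had mean counts from 240 for ERG28 to 21344 for OLE1. No pair of libraries agreed within sampling noise, with a chi-square per degree of freedom of at least 6.79 for every pair. PEX3 itself was not analysed here. As a check of the MATa label, STE2, the receptor gene of a cells, measured 268 CPM (counts scaled to a common library size with TMM factors) in the wild type and 246 CPM in pex3 cultures, and the alpha-specific receptor gene STE3 29.6 and 27.9 CPM. Of the 4 a-specific genes measured, BAR1 had an unadjusted p under 0.05, with 116 ± 3.23 and 96.6 ± 10.9 CPM (SD, n = 3 each) and an edgeR adjusted p of 0.491. Of the 3 alpha-specific genes 0 did, and their wild-type means lay between 12.5 and 42.6 CPM. The other a-specific genes were STE6, with means of 280 (wild type) and 276 CPM (deletion), and AGA2, with 4.82 and 3.56 CPM. AGA2 thus lay below all 3 alpha-specific genes in either strain, at a mean count of 34. The a-specific genes were therefore not all above the alpha-specific genes. Wild-type replicate 1 and deletion replicate 1 stood furthest from the others. Wild-type replicate 1 was the highest of the 6 libraries for 7 of the 31 genes and the lowest for 9, and deletion replicate 1 was the highest for 11 and the lowest for 8. Over all rows, wild-type replicate 1 was highest for 25.6% and lowest for 28% of genes, and deletion replicate 1 for 24.7% and 25.7%. Expression also varied with gene length to a different degree in each library, with a Spearman correlation across genes between length and deviation from the mean of 0.324 for wild-type replicate 1, -0.381 for the third wild-type culture and -0.143 to 0.152 for the deletion cultures. These correlations describe the libraries, since genes are not independent replicates. In bulk RNA a lower level in each cell and fewer cells with the transcript cannot be told apart.

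Many genes of the pathways had high counts on acetate. In the wild type, 13 of the 31 genes lay at or above percentile 90 of all tested genes by CPM, and 1, ERG28, lay below percentile 50. CPM are not corrected for gene length, and ACC1, at percentile 98 by CPM, ranked 20 of 31 per kilobase. Percentiles per kilobase over all genes were not computed. Levels per kilobase of coding length (CPM per kb) allow genes to be compared with each other. On that scale OLE1 (YGL055W), the fatty acid desaturase, was highest at 1560 CPM per kb in the wild type. ERG11 (YHR007C), the cytochrome P450 that demethylates lanosterol and is the target of azole drugs, followed at 836 CPM per kb. ERG25 (YGR060W), the sterol methyl oxidase, was at 789, ERG3 (YLR056W), a sterol desaturase, at 658, and ERG1 (YGR175C), squalene epoxidase, at 509 CPM per kb. These 5 highest genes all encode enzymes that use molecular oxygen. The remaining oxygen-using enzyme of the set, the second sterol desaturase ERG5 (YMR015C), ranked 13 of 31 with 249 CPM per kb. The other 25 genes lay between 18.9 and 479 CPM per kb with a median of 183, and the highest of them was the farnesyl diphosphate synthase gene ERG20. This order was noticed in the data and was not tested.

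**Figure D1:**
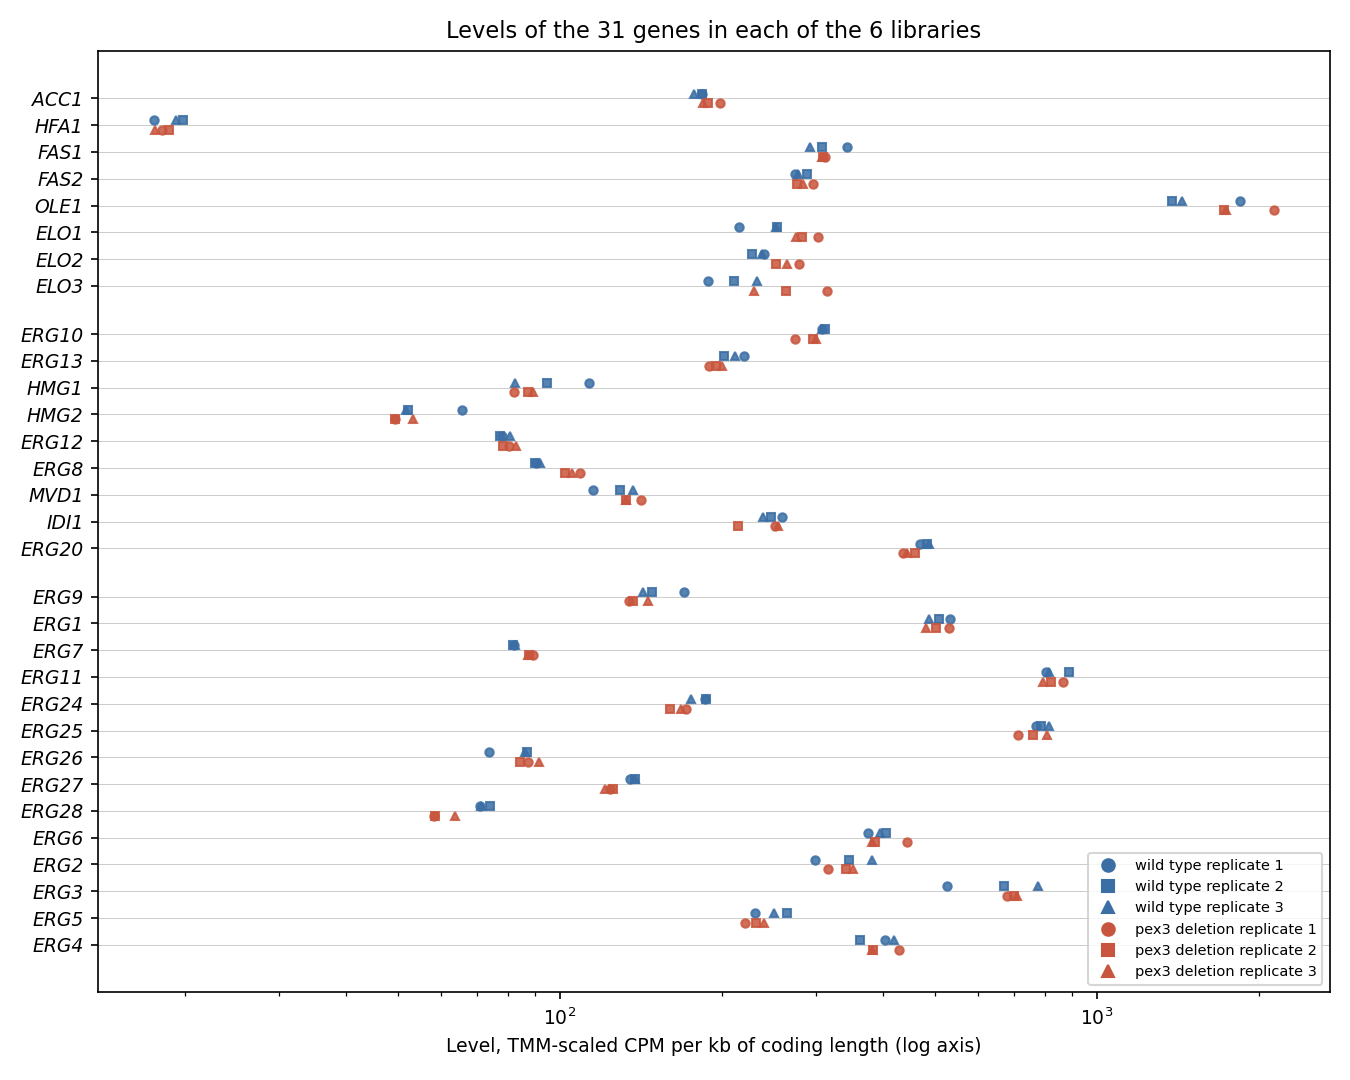
Level of each of the 31 genes in each library, in TMM-scaled CPM per kb of coding length on a log axis, with genes in pathway order, wild type in blue and deletion strain in red (circle, square and triangle are replicates 1, 2 and 3). Levels run from 18.9 for HFA1 to 1560 for OLE1 in the wild-type mean, and the strain means of a gene differ by no more than 27.8%, the value for ELO3.

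No gene of these pathways differed between the strains at an adjusted p of 0.05 over all genes. In the edgeR quasi-likelihood test, 0 of the 31 were called, where 10 of 5628 tested rows were (0.178%), and the smallest adjusted p among the 31 was 0.455, for ERG8. DESeq2 and limma voom also called 0 of the 31. Without adjustment, 6 genes had a p under 0.05, a number that was 3 with DESeq2, 1 without deletion replicate 1 or without deletion replicate 2, 2 without wild-type replicate 2, and 4 without wild-type replicate 1 or deletion replicate 3. ELO1, ELO2, ELO3 and ERG8 had higher values in the deletion strain, against 3.93% of all rows in that direction. ERG27 and ERG28 had lower values, against 5.15% of all rows. The coding regions of these 6 genes in R64 are chrX:67850-68782 for ELO1, chrIII:190592-191635 for ELO2, chrXII:867354-868391 for ELO3, chrXIII:712316-713671 for ERG8, chrXII:341810-342853 for ERG27 and chrV:237570-238016 for ERG28, with ELO1 and ERG28 on the minus strand. The 3 deletion libraries were all on the upper side of the wild type for 5 genes (8.72% of all rows did so) and all on the lower side for 6 (7.73% of all rows). The median log2 fold change over the 31 was -0.016, where the median over all rows was 0.006, with 14 genes higher and 17 lower. The 10 genes with the sterol regulatory element core in the wider window had a median of -0.015, with 4 higher and 6 lower, and the 21 without it a median of -0.020, with 10 higher and 11 lower.

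Single log2 fold changes ran from -0.26 for ERG28 to 0.35 for ELO3. The 95% interval of the log2 fold change lay within -1 and 1 for all 31 genes and within -0.5 and 0.5 for 29 of them, the exceptions being OLE1 and ELO3. Over all rows tested the corresponding shares were 94.1% and 72.3%, and among the 4415 rows in the same range of mean counts they were 98% and 82.7%. The median coefficient of variation over all 6 libraries was 6.27% for the 31 genes and 8.58% for the rows in the same count range. Those rows were not matched in depth, with a median mean count of 809.8 against 2128 for the 31 genes. Whether these genes vary less than others was not tested.

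**Figure D2:**
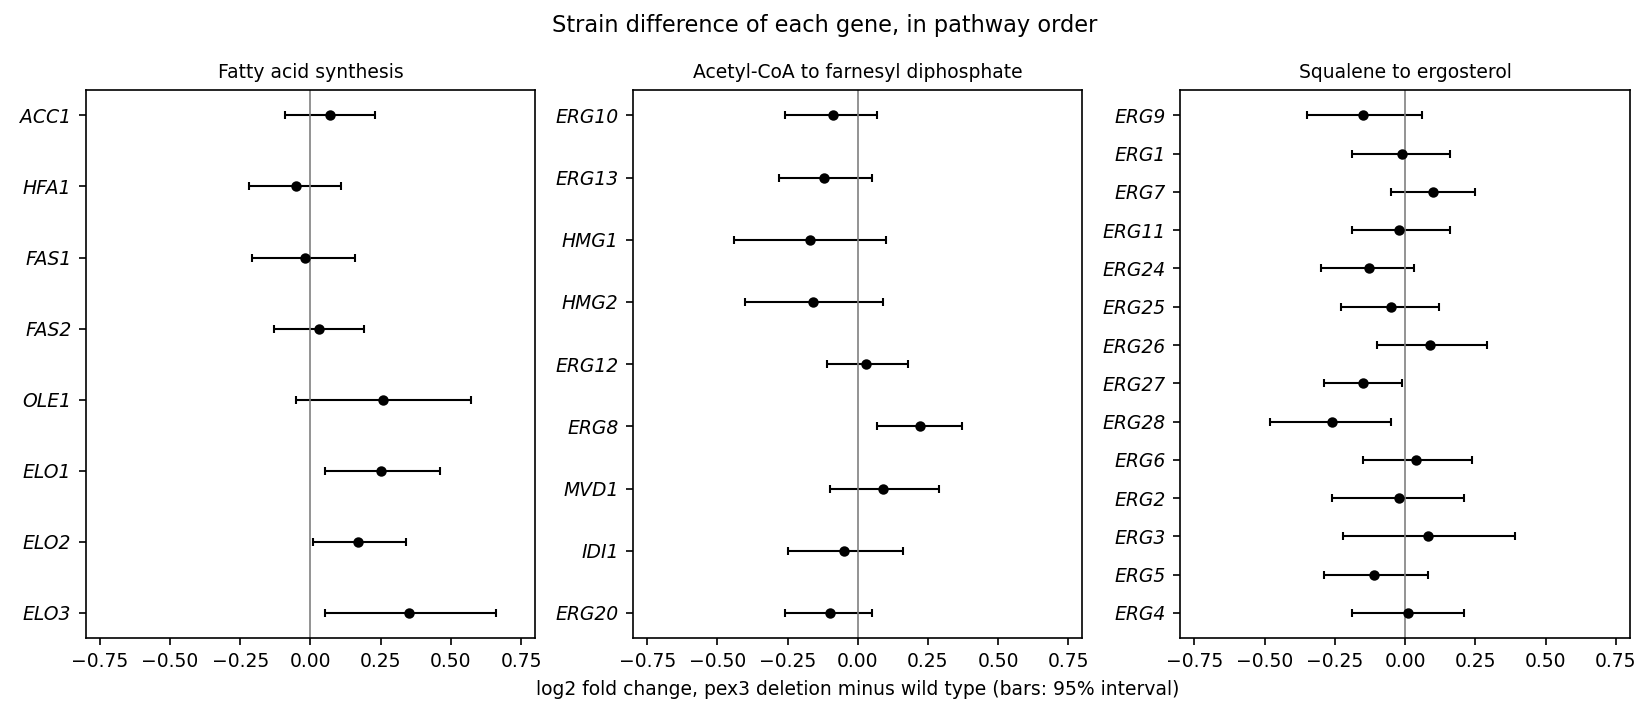
Log2 fold change of each gene, deletion strain minus wild type, with its 95% interval from the edgeR fit, in pathway order from left to right panel. The intervals of ELO1, ELO2, ELO3 and ERG8 lie above 0, those of ERG27 and ERG28 lie below 0, and those of the other 25 genes include 0.

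Fatty acid synthesis begins with acetyl-CoA carboxylase. ACC1 (YNR016C), the cytosolic carboxylase, measured 1232, 1234 and 1192 CPM in wild-type replicates 1, 2 and 3 and 1331, 1264 and 1236 CPM in the deletion libraries. The deletion values all lay above the wild-type values, by a narrow margin. The log2 fold change was 0.07 (SE 0.07), with a 95% interval from -0.09 to 0.23. HFA1 (YMR207C), which encodes the mitochondrial carboxylase, measured 120 ± 7.56 CPM in wild-type cultures and 116 ± 3.35 CPM in pex3 cultures (SD, n = 3 each), and the strains overlapped. The coding sequences of the pair are 68.2% identical over 60.1% of ACC1 and share no stretch of 50 bases. The ratio of ACC1 to HFA1 counts was 11, 9.77 and 9.73 for wild-type cultures and 11.5, 10.6 and 11 for pex3 cultures.

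FAS1 (YKL182W) and FAS2 (YPL231W) encode the subunits of fatty acid synthase, which together form the chain-building complex. FAS1 measured 2105, 1891 and 1798 CPM in wild-type cultures and 1915, 1900 and 1892 CPM in pex3 cultures. The deletion libraries fell inside the wild-type range, whose upper end was wild-type replicate 1. FAS2 measured 1585 ± 40.7 CPM in wild-type cultures and 1614 ± 56.9 CPM in pex3 cultures (SD, n = 3 each). The log2 fold changes of -0.02 for FAS1 and 0.03 for FAS2 had 95% intervals of -0.21 to 0.16 and -0.13 to 0.19. Per kilobase the subunit genes stood at 314 and 280 CPM per kb in the wild type.

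OLE1 introduces the double bond of palmitoleic and oleic acid. It measured 2828, 2119 and 2210 CPM in wild-type cultures and 3272, 2643 and 2668 CPM in pex3 cultures. Wild-type replicate 1 was higher than deletion replicates 2 and 3, so that the strains overlapped, and in each strain replicate 1 was the highest. The log2 fold change was 0.26 (SE 0.13, 95% interval -0.05 to 0.57, adjusted p 0.576 by edgeR). Its size rested on single libraries, with 0.402 without wild-type replicate 1 and 0.155 without deletion replicate 1.

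All 3 elongase genes had a higher mean in the deletion strain. ELO1 (YJL196C), which extends medium-chain fatty acids, measured 201.2, 236.8 and 235.7 CPM in wild-type cultures and 281.9, 263 and 257.2 CPM in pex3 cultures. The strains did not overlap. Its log2 fold change was 0.25 (SE 0.09, adjusted p 0.494 by edgeR). ELO2 (YCR034W) and ELO3 (YLR372W) make the very long chains used in sphingolipids. ELO2 measured 250.6, 237.8 and 247.8 CPM in wild-type cultures and 290.8, 264 and 276.3 CPM in pex3 cultures, again without overlap, and its log2 fold change was 0.17 (SE 0.07, adjusted p 0.527 by edgeR). ELO3 measured 195.7, 218.5 and 241.8 CPM in wild-type cultures and 326.9, 273.7 and 238.3 CPM in pex3 cultures. Deletion replicate 3 fell within the wild-type range, and deletion replicate 1 was the highest library for all 3 elongases. The ELO3 log2 fold change was 0.35 (SE 0.13, 95% interval 0.05 to 0.66, adjusted p 0.501 by edgeR). Without deletion replicate 1 it was 0.23, below the full value by a factor of more than 1.5. The ratio of ELO2 to ELO3 was 1.28, 1.09 and 1.02 for wild-type cultures and 0.89, 0.965 and 1.16 for pex3 cultures, so the ranges overlapped.

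**Figure D3:**
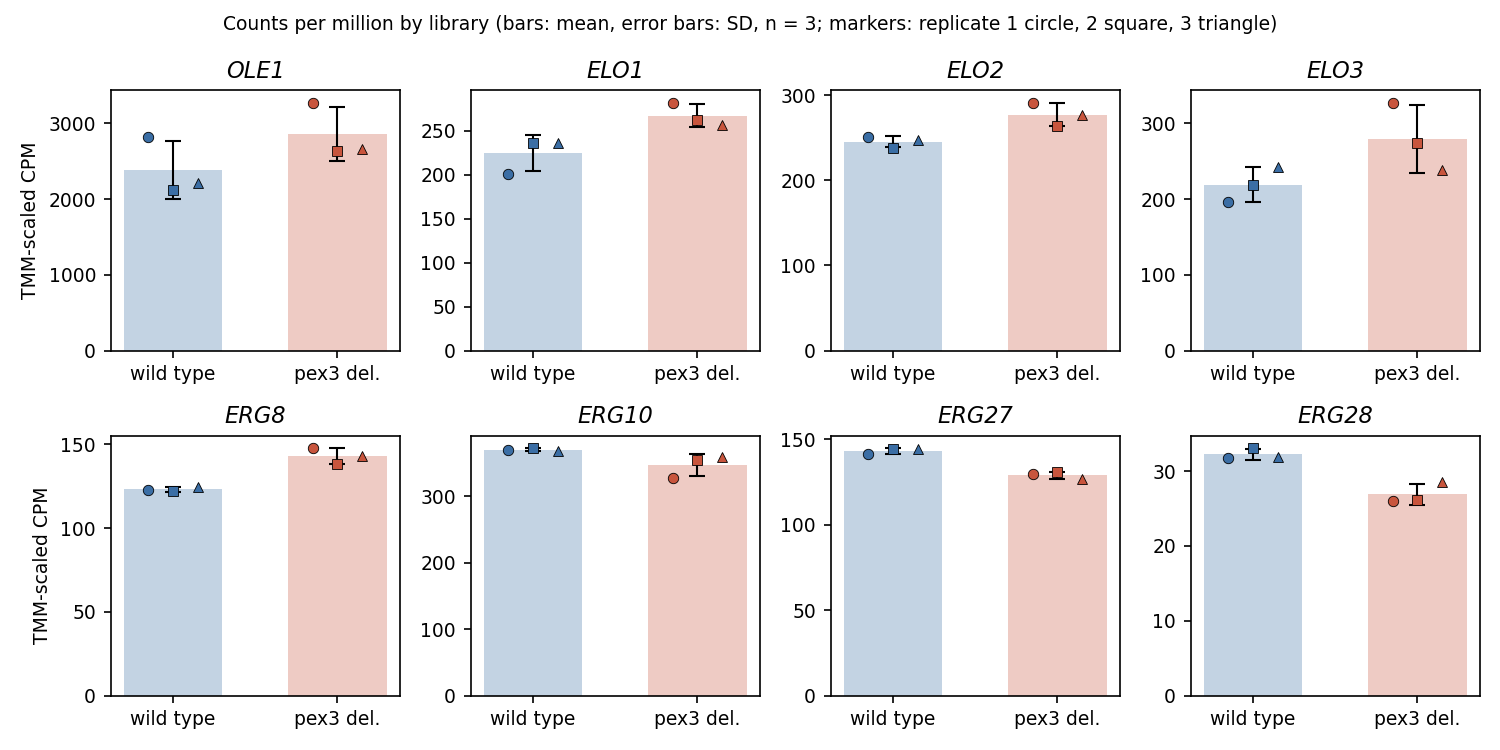
TMM-scaled CPM of OLE1, the 3 elongase genes, ERG8, ERG10, ERG27 and ERG28 in each library, with bars for the mean and error bars for the SD of the 3 cultures of each strain. The strains overlap for OLE1 and ELO3 and do not overlap for the other 6 genes, and the means differ by no more than 27.8%, the value for ELO3.

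The mevalonate pathway starts from the same acetyl-CoA pool. ERG10 (YPL028W), the acetoacetyl-CoA thiolase, measured 368.8, 372.6 and 368.4 CPM in wild-type cultures and 327.4, 354.1 and 359.1 CPM in pex3 cultures. ERG13 (YML126C), the HMG-CoA synthase, measured 325.1, 298.5 and 312.2 CPM in wild-type cultures and 280.3, 288.1 and 295.3 CPM in pex3 cultures. For both genes every deletion library lay below every wild-type library, while the log2 fold changes were small, -0.09 (SE 0.07) and -0.12 (SE 0.07), and the edgeR adjusted p values were 0.673 and 0.615.

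HMG1 (YML075C) and HMG2 (YLR450W) encode the paired HMG-CoA reductases, the main point of control of the pathway. HMG1 measured 359.2, 299.7 and 261.3 CPM in wild-type cultures and 260.3, 275.5 and 282.3 CPM in pex3 cultures. HMG2 measured 206, 163.3 and 162.1 CPM in wild-type cultures and 154.9, 154.7 and 167.2 CPM in pex3 cultures. Wild-type replicate 1 was the highest library for each gene and the other wild-type libraries lay close to the deletion strain. The log2 fold changes of -0.17 (SE 0.12, adjusted p 0.65 by edgeR) and -0.16 (SE 0.11, adjusted p 0.645 by edgeR) became -0.04 and -0.034 without wild-type replicate 1, and that of HMG1 became -0.273 without wild-type replicate 3. The ratio of HMG1 to HMG2 was 1.74, 1.84 and 1.61 for wild-type cultures and 1.68, 1.78 and 1.69 for pex3 cultures. Their coding sequences are 80.5% identical over 44.5% of HMG1 and share no stretch of 50 bases.

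The phosphomevalonate kinase gene ERG8 (YMR220W) had the smallest p of all 31 genes. It measured 122.5, 122.1 and 124.4 CPM in wild-type cultures and 147.8, 138.4 and 142.7 CPM in pex3 cultures. The strains were well separated, with all deletion values above all wild-type values. The log2 fold change was 0.22 (SE 0.06, 95% interval 0.07 to 0.37), with an unadjusted p of 0.00986 and an edgeR adjusted p of 0.455. Leaving out each library in turn gave values from 0.192 to 0.24. The kinase before it in the pathway, ERG12 (YMR208W), measured 105 ± 2.29 CPM in wild-type cultures and 107 ± 3.02 CPM in pex3 cultures (SD, n = 3 each). The decarboxylase after it, MVD1 (YNR043W, also named ERG19), measured 151 ± 12.9 and 162 ± 6.26 CPM (SD, n = 3 each). The strains overlapped for each of these neighbours, with 95% intervals of -0.11 to 0.18 for ERG12 and -0.10 to 0.29 for MVD1.

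The last enzymes of the block are the isopentenyl diphosphate isomerase IDI1 (YPL117C) and the farnesyl diphosphate synthase ERG20 (YJL167W). IDI1 measured 215 ± 9.09 CPM in wild-type cultures and 208 ± 19.2 CPM in pex3 cultures, with overlap (SD, n = 3 each). ERG20 measured 494.9, 511.9 and 515.1 CPM in wild-type cultures and 461.3, 486.1 and 468.6 CPM in pex3 cultures. Its deletion libraries lay below the wild-type libraries, and the log2 fold change was -0.10 (SE 0.07, adjusted p 0.622 by edgeR).

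The sterol branch opens with squalene synthase, ERG9 (YHR190W), which commits farnesyl diphosphate to sterols. It measured 227.3, 198.2 and 191 CPM in wild-type cultures and 179.2, 183 and 194.6 CPM in pex3 cultures, with overlap and a log2 fold change of -0.15 (SE 0.09) that was -0.069 without wild-type replicate 1. ERG1 measured 759 ± 33.7 CPM in wild-type cultures and 751 ± 37.9 CPM in pex3 cultures (SD, n = 3 each). ERG7 (YHR072W), the cyclase that makes lanosterol, measured 180.2, 179.4 and 180.9 CPM in wild-type cultures and 195.4, 192.2 and 191.2 CPM in pex3 cultures. ERG7 was thus separated between strains, at a log2 fold change of 0.10 (SE 0.06, adjusted p 0.622 by edgeR). ERG11 measured 1281, 1414 and 1298 CPM in wild-type cultures and 1379, 1306 and 1265 CPM in pex3 cultures, and the libraries of the strains were interleaved. ERG24 (YNL280C), the reductase that acts after Erg11, measured 245.2, 246 and 231.1 CPM in wild-type cultures and 225.8, 211.4 and 220.9 CPM in pex3 cultures. The ERG24 libraries did not overlap, and the log2 fold change was -0.13 (SE 0.07, adjusted p 0.585 by edgeR).

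Erg25, Erg26 and Erg27 together remove the methyl groups at a single sterol carbon, held in a complex by the membrane protein Erg28. ERG25 measured 734 ± 21.1 CPM in wild-type cultures and 708 ± 44.6 CPM in pex3 cultures, and the dehydrogenase gene ERG26 (YGL001C) 86.3 ± 7.7 and 92 ± 3.72 CPM, with overlap for each (SD, n = 3 each). The keto reductase gene ERG27 (YLR100W) measured 141.1, 144.2 and 144.2 CPM in wild-type cultures and 129.4, 130.9 and 126.7 CPM in pex3 cultures. ERG28 (YER044C) measured 31.7, 33.1 and 31.9 CPM in wild-type cultures and 26, 26.1 and 28.5 CPM in pex3 cultures. For ERG27 and ERG28 the deletion libraries lay below the wild-type libraries, at log2 fold changes of -0.15 (SE 0.06, 95% interval -0.29 to -0.01) and -0.26 (SE 0.09, 95% interval -0.48 to -0.05). Their edgeR adjusted p values were 0.527 and 0.495. Leaving out each library in turn gave -0.161 to -0.138 for ERG27 and -0.306 to -0.24 for ERG28. ERG28 is the least expressed gene of the set, with a counting error of 6.46% per library at its mean count of 240, against 1.31% for ERG25.

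The later steps shape the side chain and the ring system. ERG6 (YML008C), the sterol methyltransferase, measured 451 ± 17.3 CPM in wild-type cultures and 465 ± 39.7 CPM in pex3 cultures, and the isomerase gene ERG2 (YMR202W) 228 ± 27.6 and 225 ± 12.3 CPM (SD, n = 3 each). ERG3 measured 577.5, 736.6 and 852.1 CPM in wild-type cultures and 748.2, 770 and 777.9 CPM in pex3 cultures. The wild type alone thus spanned more than the deletion strain, with wild-type replicate 1 the lowest and wild-type replicate 3 the highest of all libraries. ERG5 measured 402 ± 28.2 CPM in wild-type cultures and 373 ± 15.3 CPM in pex3 cultures, and ERG4 (YGL012W), the last reductase of the pathway, 562 ± 40.9 and 565 ± 38 CPM (SD, n = 3 each). The strains overlapped for all 5 genes, and their log2 fold changes ran from -0.11 for ERG5, which was -0.064 without wild-type replicate 2, to 0.08 for ERG3.

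By block, the fatty acid genes stood at a median log2 fold change of 0.121, with 6 of 8 higher in the deletion strain. The mevalonate genes had a median of -0.093, with 6 of 9 lower, and the genes from squalene to ergosterol a median of -0.020, with 9 of 14 lower. Without wild-type replicate 1 the mevalonate median was -0.034. The median from squalene to ergosterol was -0.061 without wild-type replicate 1, -0.037 without wild-type replicate 2, -0.032 without wild-type replicate 3 and -0.049 without deletion replicate 1, and it was -0.005 with a correction for gene length. Set against the wild-type mean, the mean log2 level of the fatty acid block came to -0.001, -0.002 and 0.003 for wild-type cultures and to 0.222, 0.103 and 0.074 for deletion replicates 1, 2 and 3. The wild-type block values were nearly equal while single genes were not, with replicate 1 the highest wild-type library for OLE1 and the lowest for ELO1 and ELO3. The mevalonate block came to 0.044, -0.02 and -0.024 for wild-type and -0.044, -0.061 and -0.003 for pex3 cultures, and the sterol block -0.048, 0.02 and 0.028 against -0.034, -0.057 and -0.028. On this measure, which weights genes equally, the mevalonate and sterol blocks overlapped between the strains and the fatty acid block did not. The share of all counts, which is set mainly by the highly expressed genes, separated the strains differently. The fatty acid block took 0.8438%, 0.7748% and 0.7635% for wild-type cultures and 0.9266%, 0.8275% and 0.8213% for pex3 cultures, with overlap. The mevalonate block took 0.2332%, 0.2256% and 0.2225% against 0.2139%, 0.2142% and 0.2185%, without overlap. The sterol block took 0.609% ± 0.023 and 0.601% ± 0.013 (SD, n = 3 each), with overlap. Whether the strains were separated thus depended on the measure for the fatty acid and mevalonate blocks. The difference between the blocks was not tested. As a share of all counts, the 31 genes took 1.63% ± 0.026 in the wild type and 1.67% ± 0.07 in the deletion strain (SD, n = 3 each).

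**Figure D4:**
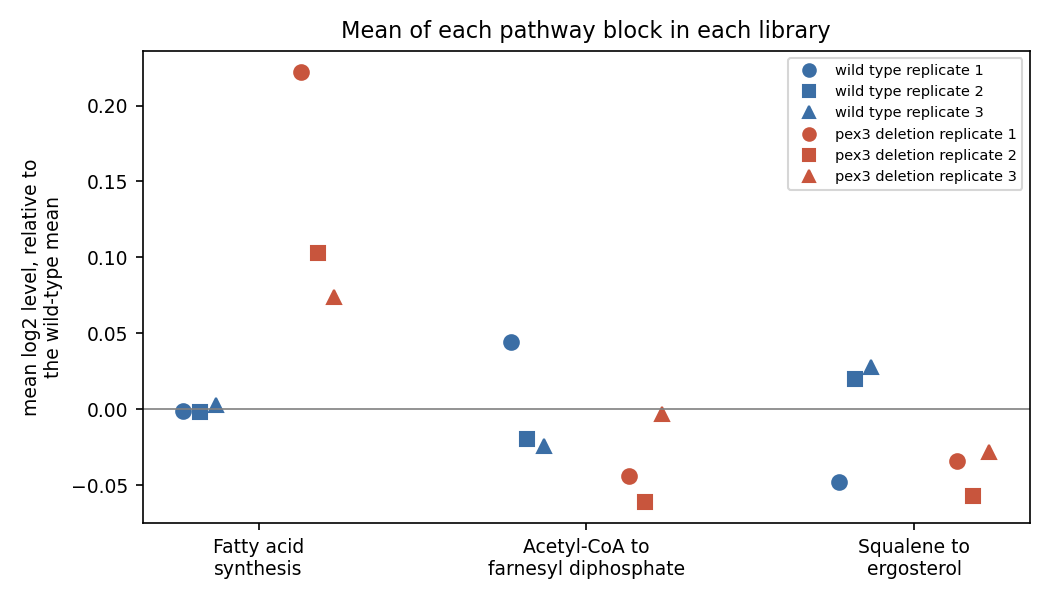
Mean log2 level of the genes of each pathway block in each library, relative to the wild-type mean of the block (wild type blue, deletion strain red, circle, square and triangle for replicates 1, 2 and 3). The deletion libraries of the fatty acid block lie at 0.074 to 0.222, above the wild-type libraries, and those of the other blocks overlap with the wild type. By share of all counts the fatty acid block overlaps and the mevalonate block does not.

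The balance within paralog and subunit pairs was compared as a log2 ratio in each library. Over 5 ratios (HMG1 to HMG2, ACC1 to HFA1, ELO2 to ELO3, ELO2 to ELO1 and FAS1 to FAS2) the strains differed by -0.01, 0.12, -0.174, -0.081 and -0.044. The two-sided exact permutation p values were 1, 0.3, 0.4, 0.6 and 0.8 (n = 3 against 3, for which 0.1 is the smallest possible), and each was 1 after Benjamini-Hochberg adjustment over the 5 ratios. The ranges of the strains overlapped for every ratio.

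Genes that act on these pathways were examined as lists written from general knowledge. Of 13 regulators, 0 were called, 9 were higher and 4 lower, with a median log2 fold change of 0.07. UPC2 (YDR213W), the activator that responds to low sterol, measured 41, 41.9 and 43 CPM in wild-type cultures and 41.6, 45.9 and 43.5 CPM in pex3 cultures, a log2 fold change of 0.06 (SE 0.08). Its relative ECM22 (YLR228C) had a log2 fold change of -0.13, and HAP1 (YLR256W) of -0.21, each with overlap. Among the 13 regulators, 2 higher and 1 lower had an unadjusted p under 0.05, where 3.93% and 5.15% of all rows did. ROX1 (YPR065W), a repressor of low-oxygen genes, measured 339 ± 10.4 CPM in wild-type cultures and 389 ± 21.6 CPM in pex3 cultures (SD, n = 3 each). The log2 fold change of ROX1 was 0.20, with an edgeR adjusted p of 0.507. MOT3 (YMR070W), another repressor of such genes, had a log2 fold change of -0.18 (adjusted p 0.52 by edgeR). PIP2 (YOR363C), a partner of Oaf1 in the response to oleate, measured 105, 87.4 and 92.6 CPM in wild-type cultures and 108.1, 115 and 131.8 CPM in pex3 cultures, a log2 fold change of 0.32 (SE 0.10, adjusted p 0.486 by edgeR). The other regulators examined had log2 fold changes of 0.30 for SUT1, 0.17 for INO2, 0.12 for INO4, 0.08 for OPI1, -0.20 for SPT23, 0.07 for MGA2 and 0.03 for OAF1.

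Among the other related lists, 0 genes were called. In the list on HMG-CoA reductase degradation, which holds the ubiquitin ligase genes HRD1 and SSM4 with their partners, the Insig homologs NSG1 and NSG2, and the Golgi gene COG5 (listed under its synonym COD4), 9 of 10 genes were lower, at a median log2 fold change of -0.057. The electron donors and partners of the sterol enzymes (NCP1, CYB5, MCR1 and DAP1) were all 4 lower, at a median of -0.102, and 5 partners of fatty acid synthesis and elongation had a median of -0.014. Over all rows tested 48.6% were lower, and the counts by direction were not tested. Sterol esterification, sterol uptake and isoprenoid branch genes had a median of -0.006 over 11 genes, and none of these 4 lists held a gene with an unadjusted p under 0.05. The mitochondrial fatty acid synthesis genes had a median of -0.069 over 7 genes. Of these, CEM1 (YER061C), the mitochondrial condensing enzyme, measured 87.7, 75.3 and 95.5 CPM in wild-type cultures and 111.1, 104.8 and 104.1 CPM in pex3 cultures, a log2 fold change of 0.31 (adjusted p 0.476 by edgeR). OAR1 (YKL055C), a reductase of the same pathway, measured 10.9, 9.52 and 7.64 CPM in wild-type cultures and 6.69, 7.14 and 5.38 CPM in pex3 cultures. Its log2 fold change was -0.54 (SE 0.21, adjusted p 0.511 by edgeR) at a mean count of 64. Low-oxygen genes, of which 4 of 7 listed were measured, were at 59 and 60.1 CPM for HEM13 and below 7 CPM for CYC7, COX5B and TIR1 in each strain's mean, and 0 had an unadjusted p under 0.05.

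**Figure D5:**
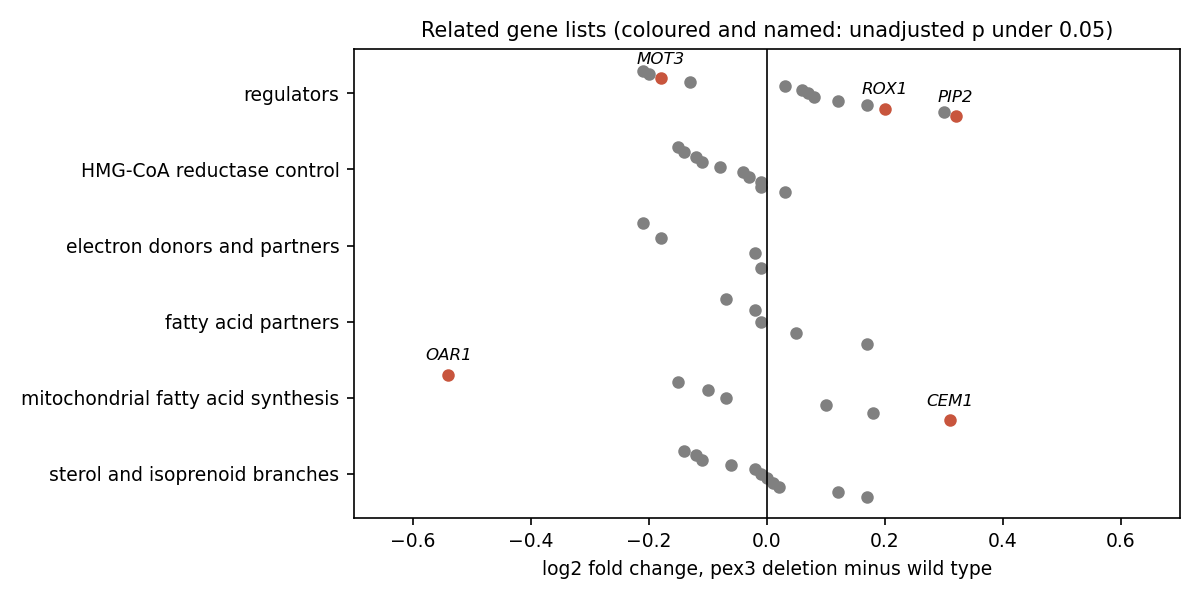
Log2 fold change, deletion strain minus wild type, of each gene in 6 lists of related genes, 1 point per gene, with genes that reached an unadjusted p under 0.05 coloured and named. PIP2, CEM1 and ROX1 lie at 0.32, 0.31 and 0.20, MOT3 and OAR1 at -0.18 and -0.54, and no gene passed the adjusted threshold.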

How the data were processed

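The deposited table holds whole-number read counts per gene, which the authors made with tools named in the submitters' processing notes, in no stated role or order, as fastp 0.20.0, STAR and RSEM 1.3.3 with genome build R64. Whether estimated values were rounded, the annotation and the use of strand are not given in the sources used here. Columns were matched to samples by strain and replicate number, and 5522 rows matched a RefSeq locus tag. The 31 genes overlap no other gene of the R64 annotation.

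Counts were tested across all genes with edgeR 4.0.16 in R 4.3.3 (glmQLFit and glmQLFTest, TMM factors, strain alone). filterByExpr removed 3 rows and left 5628, among them all 31 genes. P-values were adjusted by Benjamini-Hochberg over those rows, with a threshold of 0.05. The SE is the log2 fold change divided by the square root of F, and 95% intervals use its t distribution without adjustment. Positive values mean higher in the deletion strain. CPM are counts per library size with TMM scaling, and values with ± are mean and SD. Lengths are coding lengths. Alternatives were DESeq2 1.42.0, limma voom (limma 3.58.1), RLE and upper quartile factors, library totals, a replicate block, no filter, a floor of 50 mean counts, calls at 0.01, a length correction (per-library loess, span 0.3, prior count 2), the block with the length correction, and leaving out each library. The fits were tested on simulated counts.

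Promoters were searched on both strands for the 3 motifs spelled out above. The window of 500 bases was added after seeing the data. Paralogs were aligned with BLAST+ 2.17.0. The genes, lists and tests were chosen with earlier results of these data known. Values are given for all genes of the set and, of related lists, for the regulators and for genes with an unadjusted p under 0.05. Other genes were named to describe a list, and HEM13, STE2, STE3, STE6 and AGA2 were given values besides. Depth of 6782522 to 9410398 counts gives the counting error stated in the text, which covers counting only.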

Additional observations from a re-analysis of the deposited data

How the results depend on the processing

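None of the 31 genes was called under any of these alternatives: DESeq2, limma voom, the other scalings and filters, the threshold of 0.01, the replicate block, the length correction, both together, and each fit without 1 library. The smallest adjusted p in these fits was 0.289, without wild-type replicate 3. Over all genes, the 10 calls became 58 with DESeq2, 1 with the replicate block, 3 at the threshold of 0.01 and 3 to 15 without single libraries. With the replicate block 0 of the 31 genes were called, their median log2 fold change was -0.016 and 5 of them had an unadjusted p under 0.05. Same-numbered libraries deviated from their strain means with correlations of -0.157, 0.23 and -0.261, so the numbers were not taken to pair cultures. Each wild-type library correlated best with the deletion library of the same number in 1 of 3 cases.

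The median over the 31 genes moved from -0.016 to 0.004 with the length correction, to 0.005 with the length correction and the block, and between -0.03 and 0.011 when single libraries were left out. The cause was not tested. Of 496 values of single genes under 16 refits, 17 changed sign, in 9 genes whose main values were no larger than 0.08. ERG1 and ERG11 were at 0.009 and 0.004 with the length correction and at 0.007 and 0.005 with the block added. Leaving out single libraries gave -0.071 to 0.045 for FAS1, -0.002 to 0.049 for FAS2, -0.09 to 0.028 for IDI1, -0.054 to 0.019 for ERG1, -0.051 to 0.025 for ERG11, -0.029 to 0.082 for ERG6, -0.112 to 0.062 for ERG2, -0.054 to 0.22 for ERG3 and -0.052 to 0.053 for ERG4. No sign changed under another scaling or filter. With the wider promoter window, the count of genes with the sterol element core went from 4 to 10 and that with CATGTG from 3 to 7, while that with the Hap1 motif was 0 in both windows. Of the 5 ratios, HMG1 to HMG2, ELO2 to ELO1 and FAS1 to FAS2 changed sign when single libraries were left out. With 3 cultures a strain, the median SE of the 31 log2 fold changes was 0.08.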
